A study of Mus musculus with 10 samples.

Results

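LIM homeobox genes encode transcription factors with a DNA-binding homeodomain and, ahead of it, a pair of LIM zinc-finger domains through which they bind cofactors. The 10 family members described here (Lhx2, Lhx3, Lhx4, Lhx5, Lhx6, Lhx8, Lhx9, Isl1, Lmx1a and Lmx1b) were chosen by name, with earlier results of these data known, from 24500 genes with counted reads, and all 10 were found. Chromatin of E14 cells, a mouse embryonic stem (ES) cell line with the strain label 12910la, was analysed by ChIP-seq, the sequencing of DNA pulled down by an antibody, with antibodies against H3K27me3 (histone H3 trimethylated at lysine 27) and against EZH2. Control cells were wild-type, and ex14D cells, labelled as an Ezh2 knockout of exon 14, carry an in/del in that exon made with CRISPR-Cas9, so that only the splice form of EZH2 lacking it is intact. Each antibody had 2 libraries per genotype, and each genotype had 1 library of input chromatin, which makes 10 libraries. The labels give neither the clone nor whether the libraries of a genotype came from separate cultures, so p-values measure only the spread between these libraries.

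EZH2 is the methyltransferase of Polycomb repressive complex 2 (PRC2), which places the H3K27me3 mark on nucleosomes and keeps developmental genes silent. In ES cells, PRC2 occupies CpG-rich promoters of genes that are switched on only later, when cells take up a lineage. LIM homeobox factors are among these lineage regulators. Lhx3, Lhx4 and Isl1 act in motor neurons and the pituitary, Lhx2, Lhx5 and Lhx9 in the forebrain, eye and gonad, Lhx6 and Lhx8 in interneurons and cholinergic neurons of the ventral forebrain, and Lmx1a and Lmx1b in midbrain dopaminergic neurons, with Lmx1b also needed in limb, kidney and serotonergic neurons. In GRCm38 (mm10), chromosome 2 holds Lhx2 (38339281 to 38369737, forward strand), Lhx3 (26200212 to 26208249, reverse), Lhx6 (36081953 to 36105408, reverse) and Lmx1b (33560965 to 33641098, reverse). Chromosome 1 holds Lhx4 (155701692 to 155742027, reverse), Lhx9 (138825186 to 138847579, reverse) and Lmx1a (167689558 to 167848733, forward). Lhx5 lies on chromosome 5 (120431886 to 120441457, forward), Lhx8 on chromosome 3 (154306293 to 154330560, reverse) and Isl1 on chromosome 13 (116298270 to 116309688, reverse).

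Reads were counted by the authors in a 1 kb window around the 5′ most transcription start site (TSS) of each gene for H3K27me3 and input, and over the gene for EZH2. The reads on these windows or genes numbered 409371 to 416778 for input, 594289 to 1450937 for H3K27me3 and 13628137 to 18403892 for EZH2, of 10525739 to 41593153 counted reads in a library. Levels are given as CPM, counts scaled to the same total of reads on genes in every library, which are relative within a library, so that the total amount of the mark, fewer cells carrying it and less mark per cell cannot be told apart. The genotype could not be checked from these counts, which do not resolve a change within 1 exon. Of 8 ES cell marker genes, only Klf4 had H3K27me3 of 2-fold or more above input in each control library, and none did in ex14D.

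The promoter sequences show how unlike each other the members are in CpG content, the base pair step that PRC2-bound promoters are rich in. The sequences are the 250 bases before a TSS for 4 genes, from the RefSeq annotation of GRCm38.p6, read 5′ to 3′ along the strand of the gene, with each CpG in capitals. Lhx2 is shown because it reached the highest H3K27me3 level, Lhx8 because it rose most with few CpG, Isl1 because it did not pass the test with many, and Lhx3 because the border of the mark runs between its promoters. Lhx2 lies at chr2:38339031-38339280 on the forward strand with 25 CpG. Lhx8 (chr3:154330561-154330810), Isl1 (chr13:116309689-116309938), the upstream promoter of Lhx3 (chr2:26208250-26208499) and its downstream promoter (chr2:26206576-26206825) lie on the reverse strand, with 4, 33, 11 and 22 CpG. Each lies just upstream of its transcript, and the downstream promoter of Lhx3 lies within the gene.
Lhx2: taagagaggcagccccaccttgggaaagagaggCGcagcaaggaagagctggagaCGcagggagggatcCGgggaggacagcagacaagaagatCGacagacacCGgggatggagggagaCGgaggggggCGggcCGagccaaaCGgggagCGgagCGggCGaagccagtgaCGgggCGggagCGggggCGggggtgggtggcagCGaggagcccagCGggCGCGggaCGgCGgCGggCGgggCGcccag
Lhx8: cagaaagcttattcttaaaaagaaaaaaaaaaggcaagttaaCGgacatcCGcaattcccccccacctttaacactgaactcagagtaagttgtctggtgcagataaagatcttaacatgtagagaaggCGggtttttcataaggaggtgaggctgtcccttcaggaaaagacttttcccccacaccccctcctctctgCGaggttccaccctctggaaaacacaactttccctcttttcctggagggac
Isl1: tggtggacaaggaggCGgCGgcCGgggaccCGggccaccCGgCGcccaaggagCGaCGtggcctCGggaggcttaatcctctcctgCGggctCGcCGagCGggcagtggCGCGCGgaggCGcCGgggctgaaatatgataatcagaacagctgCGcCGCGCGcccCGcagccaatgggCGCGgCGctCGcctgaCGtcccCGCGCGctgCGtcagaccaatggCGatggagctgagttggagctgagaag
Lhx3 upstream: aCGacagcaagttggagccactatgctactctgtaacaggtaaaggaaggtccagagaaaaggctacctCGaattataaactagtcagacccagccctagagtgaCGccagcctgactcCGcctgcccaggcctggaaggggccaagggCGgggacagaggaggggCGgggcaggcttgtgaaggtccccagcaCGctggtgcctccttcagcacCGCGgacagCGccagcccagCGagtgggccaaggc
Lhx3 downstream: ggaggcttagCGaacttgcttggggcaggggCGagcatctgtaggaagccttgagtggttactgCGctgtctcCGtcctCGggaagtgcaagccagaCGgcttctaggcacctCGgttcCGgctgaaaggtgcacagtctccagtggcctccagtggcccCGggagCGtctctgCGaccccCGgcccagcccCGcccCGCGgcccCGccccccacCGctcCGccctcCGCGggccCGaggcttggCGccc
Over 32851 RefSeq promoters the median was 6 CpG in 250 bases. In the 1 kb window the members held 112 CpG at Lmx1b, 86 at Lhx2, 77 at Lhx5 and at Isl1, 70 at Lhx4, 67 at Lhx6, 53 at Lmx1a, 36 at Lhx8, 33 at Lhx9 and 25 at Lhx3. Their median of 68.5 stood beside a median of 40 over 24330 windows. The letters TAATTA, a core that many homeodomains bind and that reads the same on both strands, occurred in none of the 10 windows and in 14.3% of all windows.

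In control cells every member carried the mark. All 10 promoters reached 2-fold over input in each control library, on the scale of log2((CPM + 1)/(input CPM + 1)), where 11.3% of all promoters were. An H3K27me3 peak called by MACS2 lay over all 10 windows in both control libraries (18% of all windows). So did an EZH2 domain called by hiddenDomains (16.8% of all windows). With only peaks of q under 0.001, 7 members had one in both control libraries and 10 in both ex14D libraries. The share of all windows was not computed for that rule, so whether other genes moved alike was not tested. The levels of the genes differed among themselves. Lmx1b was highest over input, at 4.61 and 3.89 (log2) in control replicates 1 and 2. Lhx9 had 3.88 and 3.71, Lhx4 3.91 and 3.59, Lhx6 3.69 and 3.55, Lhx5 3.79 and 3.25, Lhx2 3.35 and 3.11, and Lmx1a 3.24 and 3.15. From Lhx9 to Lmx1a, neighbours in this order overlapped between replicates, and Lmx1b lay just above Lhx9 without overlap but overlapped Lhx4. Lhx8, at 2.53 and 2.37, stood below Lmx1a and above the lowest pair without overlap. Isl1, at 1.46 and 2.02, and Lhx3, at 1.51 and 1.66, overlapped each other. The input windows held only 6 to 29 reads in control and 3 to 31 in ex14D, and there was 1 input library per genotype, so the level over input is less certain than the replicates show.

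In ex14D cells 9 of the 10 promoters kept both libraries at 2-fold or more above input, where 9.14% of all promoters were. Lhx2 was now highest over input, at 5.16 and 5.55 (log2), above all other members. Lmx1b (4.51 and 4.87), Lhx5 (4.52 and 4.78) and Lhx8 (4.44 and 4.76) overlapped one another. Lhx6, at 4.23 and 4.34, was next and apart from Lhx8, and Lhx9 (3.81 and 3.92) and Lhx4 (3.79 and 3.84) overlapped below it. Lmx1a (3.06 and 2.96), Isl1 (1.41 and 1.43) and Lhx3 (0.87 and 0.57) each stood below the one before without overlap. Lhx3 was the member under 2-fold. These places rest on 1 input library, in which Lhx3 had 21 reads in control and 31 in ex14D. Over the input of the other genotype, Lhx3 stood at 1.40 and 1.09 in ex14D and at 0.98 and 1.13 in control, so that it was over 2-fold in both ex14D libraries and under it in control replicate 1, and Lmx1b (5.32 and 5.68) was above Lhx2 (4.21 and 4.59) in ex14D. All 10 windows still had an H3K27me3 peak in both ex14D libraries (16.5% of all windows), and 9 still had an EZH2 domain in both (10.4% of all windows), the exception again being Lhx3.

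Whether the relative H3K27me3 counts at these promoters differed in ex14D was tested by the quasi-likelihood method of edgeR with TMM scaling. The test covered 14883 promoters, with Benjamini-Hochberg adjustment at a threshold of 0.05. H3K27me3 was higher in ex14D at 8 of the 10 promoters (5.85% of all promoters tested were higher) and lower at 0 (3.19% of all were lower, and no member was lower at an unadjusted p under 0.05 or with DESeq2). The median log2 change was 1.27 over the members and -0.02 over all promoters. Higher here means a larger share of the scaled reads of a library, not a larger amount of the mark. The paper reports less total H3K27me3 in the mutant cells by Western blot. By ChIP-PCR it also reports less of the mark at the developmental genes it assayed, none of them members. Relative counts cannot be set against these amounts. The TMM factors differed by genotype, being 1.15 and 1.18 for control but 0.871 and 0.843 for ex14D, and promoter windows held 5.65% and 5.98% of counted reads in control and 7.58% and 6.86% in ex14D. The part of these differences in the result was tested only through the other scalings given for the members and the median. Set beside promoters with a like level of the mark, the members stood out less. Of 401 promoters tested whose control libraries both exceeded input 8-fold or more, 70.6% rose, with a median of 1.00. All 7 members in that class were higher, with a median of 1.28, and of the 3 members between 2-fold and 8-fold, 1 was higher, where 21.1% of all such promoters were. These classes use the control libraries of the same comparison.

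**Figure D1:**
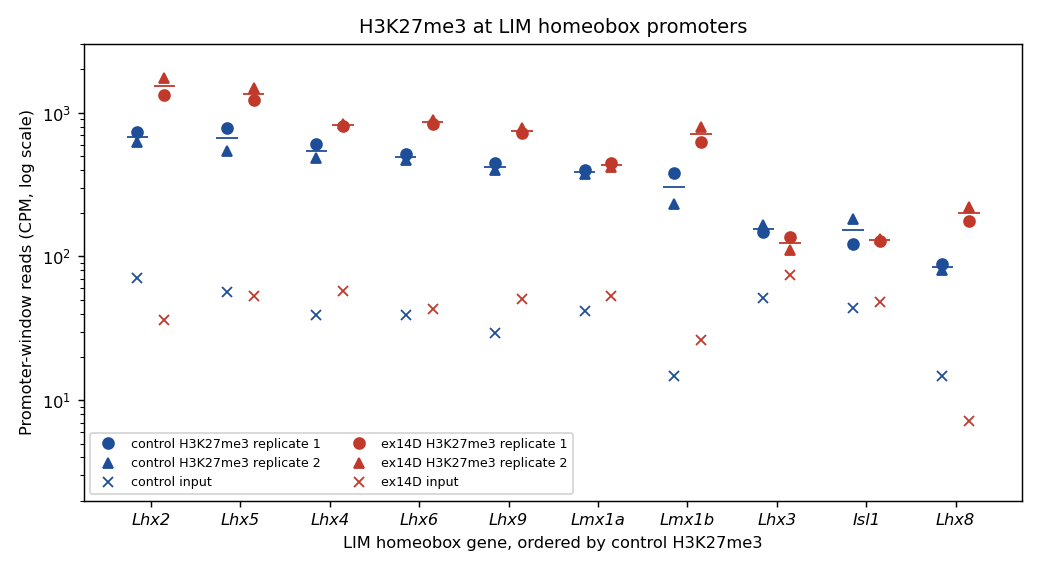
H3K27me3 reads in the 1 kb promoter window (CPM, log axis) for each LIM homeobox gene, with 2 control libraries (blue) and 2 ex14D libraries (red), a bar at the mean of each genotype and crosses for the 1 input library of each genotype. At Lhx2 the ex14D libraries sit at 1325 and 1733 CPM, above 732 and 621 in control, whereas at Isl1 the genotypes overlap and at Lhx3 both ex14D libraries are below both control libraries.

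The largest changes were at Lhx8, Lmx1b and Lhx2. The log2 changes given are after TMM scaling, which CPM do not include. With library size alone they were 1.24 at Lhx8, 1.23 at Lmx1b and 1.18 at Lhx2. At Lhx8, a factor of cholinergic neurons and of germ cells in the ovary, H3K27me3 was 89.2 and 80.0 CPM in the control libraries and 177 and 221 CPM in the ex14D libraries. Its log2 change was 1.69 (SE 0.24, edgeR adjusted p = 2.98e-05). In CPM it was the lowest of the members in control and the third lowest in ex14D. Its input window held 6 reads in control and 3 in ex14D, which moves its level over input. At Lmx1b the control libraries had 380 and 232 CPM and the ex14D libraries 624 and 800 CPM. The difference of 1.68 (log2, SE 0.23, edgeR adjusted p = 2.04e-05) was larger than the spread in control, which was wide. The windows of these genes overlap those of AI606473 (Lhx8) and C130021I20Rik (Lmx1b), and reads in the shared bases were assigned to neither gene. Lhx2, needed for the eye, cortex and hair follicle, had 732 and 621 CPM in control and 1325 and 1733 CPM in ex14D. This was a log2 change of 1.63 (SE 0.21, edgeR adjusted p = 9.43e-06).

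At 4 further genes the rise was between 1.05 and 1.48 on the log2 scale after TMM scaling. With library size alone it was 1.03 at Lhx5, 0.83 at Lhx9, 0.81 at Lhx6 and 0.61 at Lhx4. Lhx5, a gene of the early forebrain and hippocampus, had 787 and 542 CPM in control and 1229 and 1472 CPM in ex14D (log2 change 1.48, SE 0.22, edgeR adjusted p = 4.11e-05). Lhx9, a gonad and limb factor, had 446 and 397 CPM and 717 and 779 CPM (1.28, SE 0.20, edgeR adjusted p = 6.82e-05). Lhx6, a factor of cortical interneurons, had 517 and 467 CPM and 830 and 895 CPM (1.26, SE 0.20, edgeR adjusted p = 7.86e-05). Lhx4, a pituitary and motor neuron factor, had 602 and 481 CPM and 808 and 837 CPM (1.05, SE 0.20, edgeR adjusted p = 0.000758). In each of these genes both ex14D libraries were above both control libraries, as was so at 8 members and at 9.1% of all promoters tested.

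Lmx1a, a determinant of dopaminergic progenitors, changed least among those past the threshold. It had 402 and 376 CPM in control and 449 and 418 CPM in ex14D. The log2 change of 0.61 (SE 0.19) passed the threshold by a narrow margin (edgeR adjusted p = 0.0498) and no longer did with DESeq2 (0.52, adjusted p = 0.0881) or when libraries were scaled by size alone (0.16, edgeR adjusted p = 0.596). Lhx3 and Isl1, which together specify motor neurons, did not pass the test. Isl1 had 123 and 181 CPM in control and 129 and 131 CPM in ex14D, overlapping, with a log2 change of 0.21 (SE 0.24, edgeR adjusted p = 0.690) that turned to -0.24 with library size alone and to -0.056 without control replicate 1. Lhx3 had 148 and 164 CPM in control and 137 and 111 CPM in ex14D. Both ex14D libraries of Lhx3 were below both control libraries in CPM, as at 51.2% of all promoters tested, and its log2 change after TMM scaling was 0.11 (SE 0.23, edgeR adjusted p = 0.849) but -0.34 with library size alone. That scaling moved the median of all promoters to -0.47 and the median of the members to 0.82, and 7 members were higher, where 2.67% of all promoters were. Without control replicate 2, 4 members were higher (Lhx2, Lhx6, Lhx8 and Lhx9), where 1.35% of all promoters were.

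EZH2 reads moved the other way. The paper reports less EZH2 protein in ex14D lines by Western blot, and less EZH2 at its target genes by ChIP-seq. Relative counts cannot be set against the protein amount. Of the 9 members with EZH2 reads, EZH2 was lower in ex14D at 7 (7.88% of the 13401 genes tested were lower) and higher at 0 (0.0522% of all, and no member at an unadjusted p under 0.05 or with DESeq2), by edgeR's quasi-likelihood test. Without adjustment, p was under 0.05 at all 9, where 12.6% of all genes tested were lower. The members had a median log2 change of -0.61 and the genes tested one of 0.02. Among the 231 tested genes of the same 8-fold class of H3K27me3 in control, 67.5% were lower with a median of -0.61, beside 6 of the 7 members in that class. The comparison rests on both control libraries, since without either of them 0 members and 0 genes in all passed the edgeR threshold (7 members and 1300 to 1372 genes, or 9.65% to 10.1% of all, were lower at an unadjusted p under 0.05). All 9 members kept a negative change without either control library. With DESeq2, 4 members were lower (Lhx2, Lhx5, Lhx6 and Lhx9), beside 736 genes or 5.73% of those with an adjusted p.

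**Figure D2:**
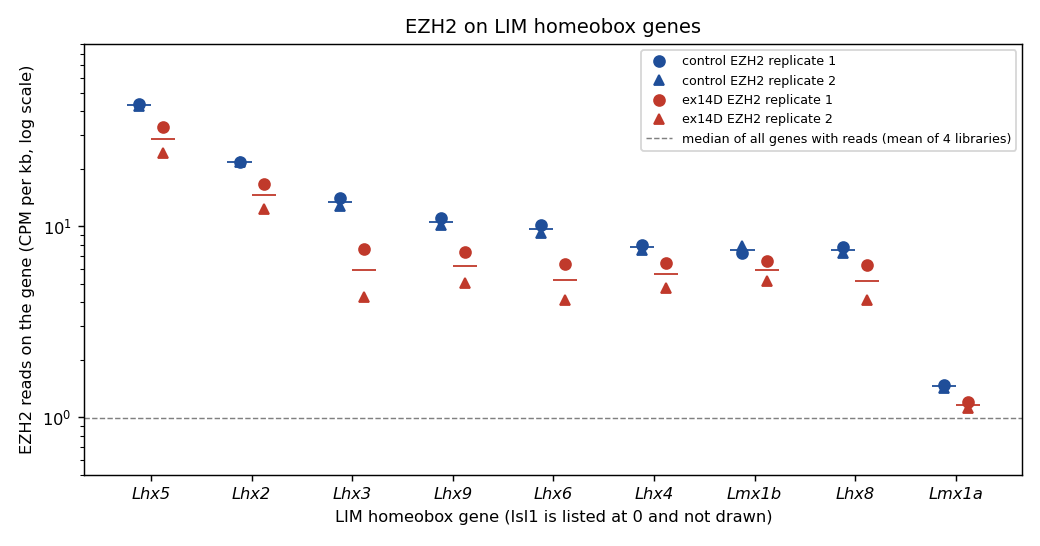
EZH2 reads per length of gene (CPM per kb, log axis) for the 9 LIM homeobox genes with EZH2 reads, with 2 control libraries (blue), 2 ex14D libraries (red) and a bar at the mean of each genotype. All 9 genes lie above the median of all genes with reads (dashed line), and both ex14D libraries lie below both control libraries at each of them, with ex14D replicate 2 the lower.

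Per length of gene, Lhx5 held the most EZH2, with 43.8 and 42.5 CPM per kb in the control libraries, and Lhx2 followed with 21.6 in both. Lhx3 (13.98 and 12.80) came next, ahead of Lhx9 (11.0 and 10.1) and Lhx6 (10.1 and 9.21), whose ranges all but met. Lhx4 (7.96 and 7.54), Lmx1b (7.25 and 7.84) and Lhx8 (7.80 and 7.22) overlapped one another. Lmx1a, at 1.48 and 1.42 CPM per kb, was close to the median of 0.966 over 13874 genes with reads, and the EZH2 domains of a library covered only 3.42% to 5.93% of this gene of 159 kb. The counts of a long gene with a short domain take in reads from outside the domain.

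The largest fall in EZH2 was at Lhx3, the shortest of these genes. It had 112 and 103 CPM in control and 61.3 and 34.2 CPM in ex14D, a log2 change of -1.22 (SE 0.22, edgeR adjusted p = 0.0163, but 0.0716 with DESeq2). Lhx6 fell from 237 and 216 CPM to 149 and 96.5 CPM (log2 change -0.93, SE 0.17, edgeR adjusted p = 0.0182). Lhx9 fell from 247 and 226 CPM to 164 and 113 CPM (-0.82, SE 0.15, edgeR adjusted p = 0.0173). Both genes had more H3K27me3 reads at the promoter in the same cells. Lhx5 (419 and 407 CPM in control, 317 and 232 CPM in ex14D) changed by -0.63 (SE 0.12, edgeR adjusted p = 0.0211). Lhx2 (659 and 658 CPM, then 509 and 376 CPM) changed by -0.61 (SE 0.12, edgeR adjusted p = 0.0205). The control libraries of Lhx2 were nearly equal and both ex14D libraries were well below them. Lhx4 (321 and 304 CPM, then 260 and 192 CPM) changed by -0.51 (SE 0.12, edgeR adjusted p = 0.0476), and its call was lost with DESeq2 size factors (-0.51, edgeR adjusted p = 0.0649). Lmx1a (235 and 226 CPM, then 192 and 178 CPM) changed by -0.36, with the smallest SE of the members at 0.05 (edgeR adjusted p = 0.00686, but 0.0704 with DESeq2).

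Lhx8 and Lmx1b did not pass the EZH2 threshold. Lhx8 had 189 and 175 CPM in control and 152 and 99.4 CPM in ex14D, with a log2 change of -0.58 (SE 0.17, edgeR adjusted p = 0.102). Lmx1b had 581 and 628 CPM in control and 529 and 414 CPM in ex14D, with a log2 change of -0.40 (SE 0.10, edgeR adjusted p = 0.0651). Their groups did not overlap, as at all 9 members with reads and at 18% of all genes tested. In ex14D, replicate 2 was below replicate 1 at all 9 members, and the median change of the members was -0.90 without ex14D replicate 1 and -0.41 without ex14D replicate 2. Isl1 is listed at 0 EZH2 reads in all 4 libraries. It lies in an uninterrupted stretch of 255 genes listed at 0 over 45.8 Mb of chromosome 13. A domain was nevertheless called over its promoter in all 4 libraries, so the 0 gives no EZH2 level for Isl1. Such a 0 in all 4 libraries is listed for 10575 of the 24500 genes (43.2%). EZH2 CPM and tests therefore rest only on the genes with reads. Whether the deposited EZH2 counts are incomplete was not tested.

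**Figure D3:**
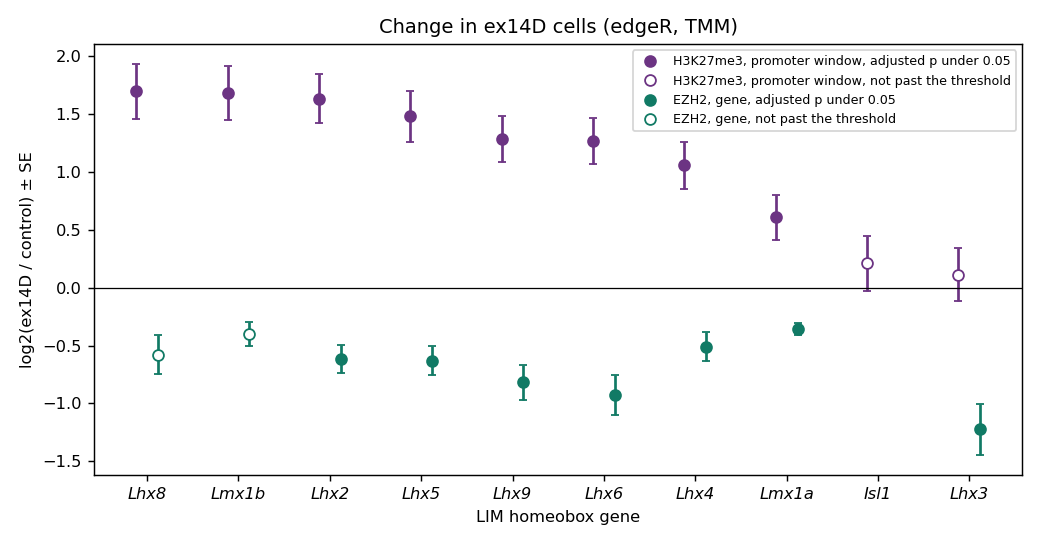
Log2 change of ex14D over control with its SE for H3K27me3 in the promoter window (purple) and EZH2 on the gene (green), filled where the edgeR adjusted p was under 0.05. H3K27me3 lies above 0 at all 10 genes after TMM scaling (Lhx3 at 0.11 and Isl1 at 0.21 turn to -0.34 and -0.24 with library size alone) and EZH2 below 0 at all 9 with reads, with the largest EZH2 fall and the smallest H3K27me3 value at Lhx3.

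The peaks and domains over the members were wide. H3K27me3 peaks over the promoter windows spanned 8.60 to 91.9 kb in the 4 libraries, where the median peak of a library spanned 1.60 to 2.17 kb and 4.47% to 5.28% of peaks reached 10 kb. Lmx1b had the widest, at 49.7 and 56.9 kb in control and 91.9 and 87.8 kb in ex14D, where intervals that were separate in control were called as one over nearly the whole gene. Lmx1a had narrow peaks at its start, of 9.58 and 10.9 kb in control and 10.3 and 8.60 kb in ex14D. It also had a second interval far inside the gene in all 8 ChIP libraries. Peaks were narrower in both ex14D libraries than in both control libraries at 5 members (43.6% of all genes with a peak in both control libraries), so the members' share was near that of the other genes.

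EZH2 domains over the windows were 8 to 42 kb wide in control and 6 to 33 kb in ex14D where one was called, and were narrower in both ex14D libraries at 6 members (57.9% of all genes with a domain in both control libraries), again near the share of other genes. The domain of Isl1 was 14 and 23 kb wide in control and 9 and 6 kb in ex14D. The domain of Lhx6 was 18 and 20 kb in control and 7 and 7 kb in ex14D, where a second domain lay further inside the gene and ended at the same place as the control domain. At Lhx2 it was 26 and 29 kb in control and 25 and 25 kb in ex14D. The edges of these domains all fall on whole kb, so widths differ only in steps of that size. At Lhx2, Lhx9 and Lmx1a the narrower call rests on the smallest step.

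**Figure D4:**
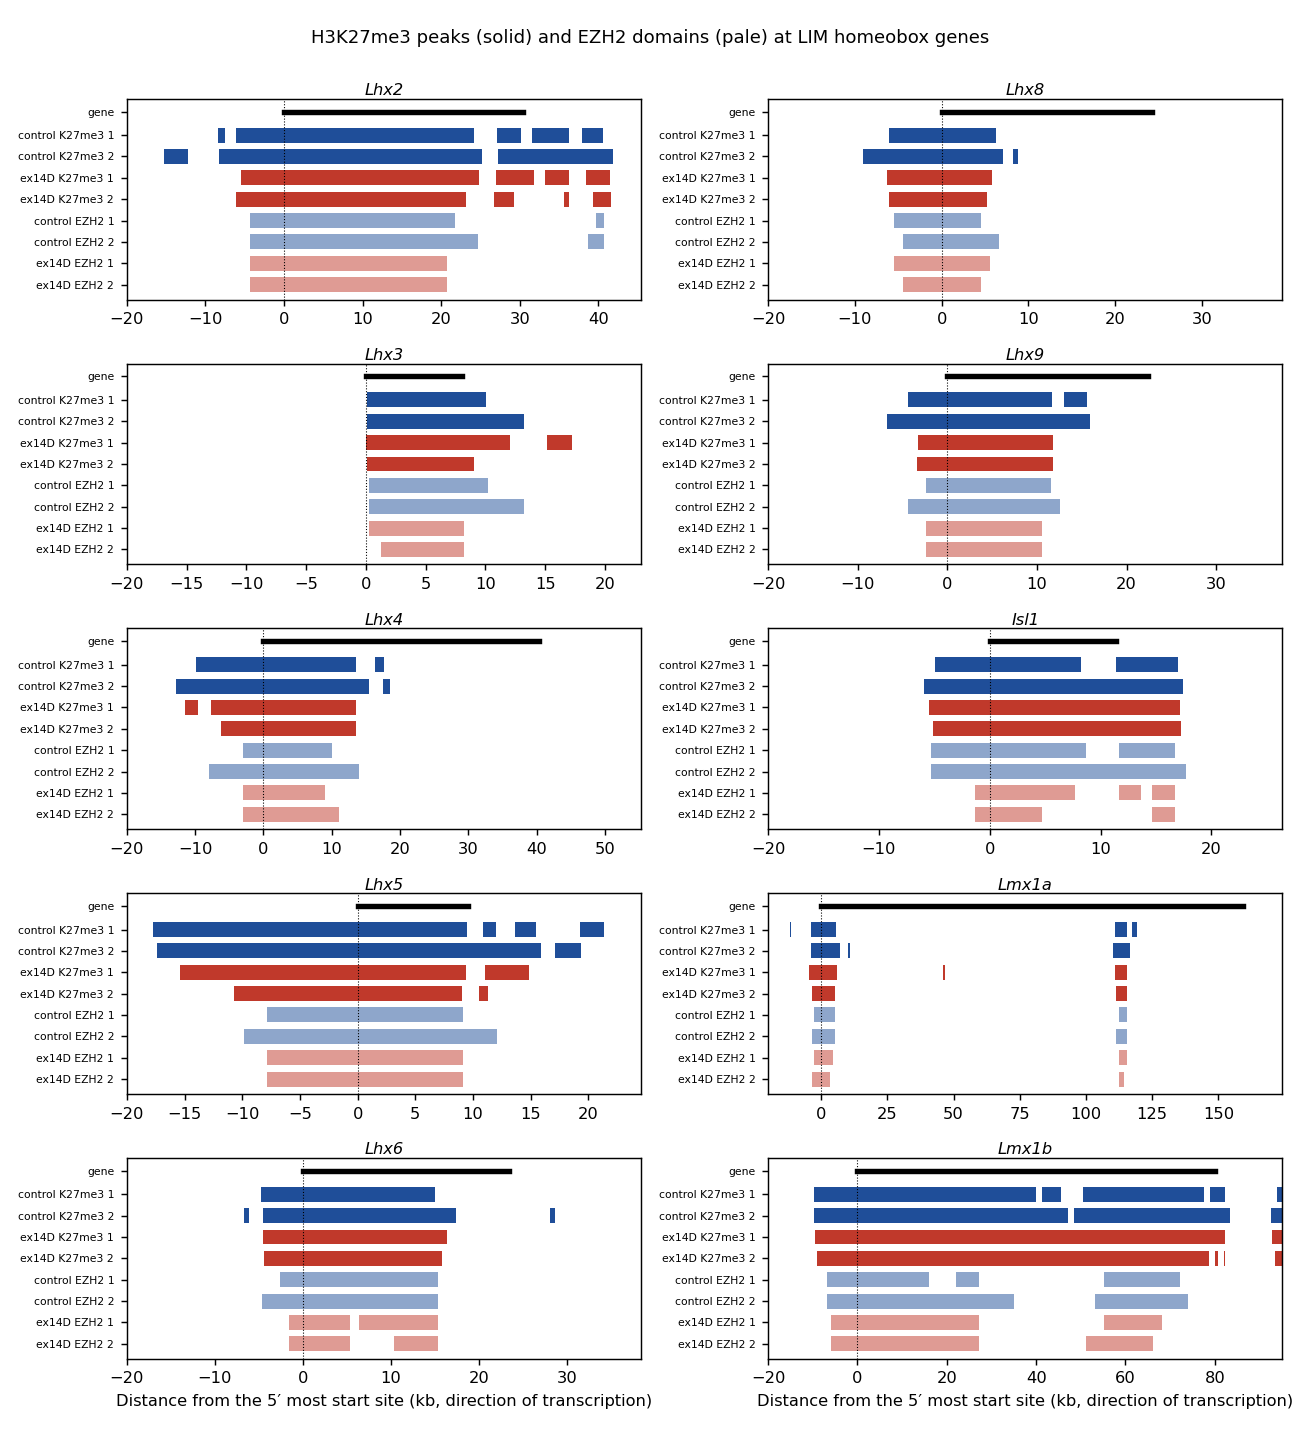
H3K27me3 peaks (solid) and EZH2 domains (pale) around each LIM homeobox gene by distance from the 5′ most start site in kb, along the direction of transcription, with 1 row per library (blue for control, red for ex14D) and the gene as a black bar. At Lhx3 every interval starts downstream of the start site, at Lmx1b the peak over the start is longer in ex14D (91.9 and 87.8 kb against 49.7 and 56.9 kb), and at Isl1 the EZH2 domain over the start is shorter (9 and 6 kb against 14 and 23 kb).

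The fold of the peak over background, as MACS2 gave it, was higher in both ex14D libraries than in both control libraries at 7 members (44.4% of the 3678 genes with a peak in all 4 libraries). Isl1 was among these, with folds of 1.92 and 6.35 in control and 13.2 and 24.1 in ex14D, the highest of the members in ex14D. The counts in the promoter window of Isl1, which is a small part of that peak, overlapped between genotypes. Lhx9 had folds of 6.92 and 5.19 in control and 12.7 and 11.7 in ex14D. Lhx2, Lhx3 and Lhx4 overlapped between genotypes in peak fold, although Lhx2 and Lhx4 were higher in window counts. The median fold over all peaks of a library was also higher in ex14D, at 4.77 and 5.50 against 3.30 and 3.04 in control.

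Lhx3 was the only member whose window was not covered whole. Its H3K27me3 peaks ended 110 and 61 bp downstream of the TSS in control and 49 and 83 bp downstream in ex14D, and covered 391 to 452 of the 1000 bases of the window. The EZH2 domain ended 249 bp downstream in both control libraries and in ex14D replicate 1. EZH2 edges fall on whole kb, so this distance is coarser than those of the peaks. In ex14D replicate 2 the nearest domain lay outside the window. The upstream promoter printed above lay outside the mark in all 8 ChIP libraries. The downstream promoter lay wholly inside a peak or domain in all 8. The border of the mark, between the promoters, was thus in nearly the same place in both genotypes, and the low window count of Lhx3 covers a marked and an unmarked side. The windows of the other 9 members lay wholly inside a peak or domain in all 8 ChIP libraries.

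The LIM homeobox genes outside these 10 that were in the files, Lhx1 and Isl2, moved alike. Lhx1, a kidney and head organizer gene, had 55.5 and 49.1 CPM of H3K27me3 in control and 95.1 and 121 CPM in ex14D (log2 change 1.50, SE 0.28, edgeR adjusted p = 0.000613). Its window overlaps that of Lhx1os, and reads in the shared bases were assigned to neither gene. The input window of Lhx1 held 3 reads in control and 2 in ex14D, so its low CPM is no measure of a low mark. Isl2, a motor neuron gene, had 421 and 427 CPM in control and 759 and 866 CPM in ex14D (1.39, SE 0.20, edgeR adjusted p = 3.15e-05). EZH2 on Isl2 fell from 272 and 253 CPM to 180 and 110 CPM (log2 change -0.90, SE 0.19, edgeR adjusted p = 0.0291). Lhx1 is listed at 0 EZH2 reads, within a stretch of 1388 such genes.

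The proteins that LIM homeobox factors work with are encoded by genes outside the family. LDB1 and LDB2 bridge LIM domains, LIM-only (LMO) proteins compete for them, SSBP proteins steady the LDB complex, and RLIM marks it for degradation. Of the 10 cofactor genes, 1 promoter, that of Lmo1, reached 2-fold over input in each control library. This was so at all 10 members and at 11.3% of all promoters. An H3K27me3 peak lay over 2 of the 10 cofactor windows in both control libraries (18% of all windows). An EZH2 domain lay over 4 in both (16.8% of all windows). In the H3K27me3 test, 9 cofactor promoters were tested. Of these, 0 were higher (0 at an unadjusted p under 0.05 by edgeR), where 5.85% of all promoters tested were. In turn 1 was lower, where 3.19% of all were. The lower one was Ssbp2, with 63.9 and 57.6 CPM in control and 16.5 and 7.21 CPM in ex14D (log2 change -1.87, SE 0.38, edgeR adjusted p = 0.00136), beside inputs of 39.1 and 38.4 CPM. In the EZH2 test 4 cofactor genes were tested, the rest being listed at 0 EZH2 reads. Of these 4, 2 were lower, where 7.88% of all genes tested were. Lmo4 changed by -1.42 (SE 0.10, edgeR adjusted p = 0.00325) and Lmo2 by -1.04 (SE 0.18, edgeR adjusted p = 0.0138).

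Of 17 genes known to lie downstream of LIM homeobox factors, 11 promoters reached 2-fold over input in each control library and 9 in each ex14D library. Of all promoters, 11.3% and 9.14% did. In the H3K27me3 test 4 of the 17 were higher and 2 lower, where 5.85% and 3.19% of all promoters tested were. Among promoters at least 2-fold over input in control, 28.6% were higher. The median over the list was 0.22. Wnt1, which works in a loop with Lmx1a and Lmx1b in the midbrain, changed by 1.40 (SE 0.20, edgeR adjusted p = 2.84e-05). Slc18a3, the vesicular acetylcholine transporter gene that lies within Chat, changed by 1.38 (SE 0.20, edgeR adjusted p = 3.15e-05). Fev, a regulator of serotonergic neurons, changed by 1.21 (SE 0.22, edgeR adjusted p = 0.000453), and Mnx1, a motor neuron factor, by 0.91 (SE 0.19, edgeR adjusted p = 0.00248). The 2 lower ones were Tph2, the serotonin synthesis gene (-1.26, SE 0.37, edgeR adjusted p = 0.0318), and Sst, the somatostatin gene (-1.03, SE 0.29, edgeR adjusted p = 0.0240). Tph2 was below its input in every library.

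EZH2 could be tested at 10 of these downstream genes, the rest being listed at 0 EZH2 reads. Of these 10, 6 were lower and 0 higher (0 at an unadjusted p under 0.05 by edgeR), with a median of -0.51. Of all genes tested, 7.88% were lower. Among those at least 2-fold over input for H3K27me3 in control, 49.0% were lower. Nr4a2, a dopaminergic factor, changed by -1.30 (SE 0.22, edgeR adjusted p = 0.0118) and Mnx1 by -1.27 (SE 0.22, edgeR adjusted p = 0.0136). Shh, the hedgehog ligand, changed by -0.93 (SE 0.17, edgeR adjusted p = 0.0180). Mnx1 thus had more H3K27me3 reads and fewer EZH2 reads in ex14D, as was so at 6 of the 9 LIM homeobox genes tested for both (Lhx2, Lhx4, Lhx5, Lhx6, Lhx9 and Lmx1a) and at 3.38% of the 8533 genes tested for both.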

How the data were processed

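Per the labels and the methods, the authors aligned reads to mm10 with Bowtie, counted them with htseq-count and called H3K27me3 broad peaks with MACS2 and EZH2 domains with hiddenDomains in each library. The submitters' processing notes name Bowtie2 and Trimmomatic. The counts as deposited are raw whole reads for each gene, and reads on no gene stayed out of library sizes, at 97.9% to 98.0% of counted reads for input, 92.0% to 94.0% for H3K27me3 and 33.8% to 34.9% for EZH2. Reads on more than 1 counted interval were left out too. The methods give 1 kb windows, but the deposited EZH2 counts follow gene length and were treated as counts over genes. Each deposited peak has its fold enrichment and −log10 q from MACS2, run against a control that is not named. The H3K27me3 domains have coordinates of another assembly and were not used, nor were the score and −log10 p of the peaks.

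From these files, ex14D and control were compared for each antibody with edgeR 4.0.16 in R 4.3.3 (quasi-likelihood F test after TMM and filterByExpr, with Benjamini-Hochberg adjusted p under 0.05 as the threshold). SE is the log2 change over the square root of F. H3K27me3 was set against input after adding 1 CPM. Windows were rebuilt from the RefSeq annotation of GRCm38, which placed 24336 of 24500 genes, and an interval counted with an overlap of at least 1 bp. Simulated data, in which 200 genes of each comparison were changed, were used to test the procedure. For H3K27me3 it recovered 44% of 2-fold and 100% of 4-fold changes among 14470 genes, and for EZH2 98% and 100% among 13384 genes, with 1.37% and 3.41% false calls. The changed genes were drawn only from well-covered genes, as many raised as lowered, with a common spread for all genes. No difference in scaling between genotypes was simulated, so the rates do not extend to low counts or to such a difference. All 10 members are named, and of the lists of other family genes, cofactors and downstream genes, both family genes and up to 4 called genes per list and antibody, by size of change, except that 1 result is not reported here. Members and lists were chosen with earlier results of these data known. Of the members, 9 had a promoter in the RefSeq table, and Lhx5 had none. Replicates of a genotype differed by more than sampling noise. The chi-square per degree of freedom was 2.31 in control and 1.95 in ex14D for H3K27me3, and 1.48 and 3.95 for EZH2. Alternatives were DESeq2 1.42.0, other scalings and filters, a replicate block, other interval rules and each library left out. Python 3.11.15, pandas 2.3.3 and pysam 0.24.0 were used.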

Additional observations from a re-analysis of the deposited data

How the results depend on the processing

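With 2 libraries per genotype, leaving out 1 leaves a lone library that is assumed to vary like the others. The counts of members over input, with a peak or with a domain did not move by over 1.5 times under any alternative run. The cause of the shifts below was not tested. H3K27me3 promoters lower in ex14D (475) numbered 263 with the DESeq2 test, 2176 with library size only and 73 to 610 with 1 library left out, and those higher (871) numbered 398 with library size only and 255 to 797 with 1 library left out. The members higher numbered 4 without control replicate 2 and 7 to 8 without another library. Their median of 1.27 was 1.13 when all counted reads set the library size, 0.82 with library size only and 1.14 to 1.33 with 1 library left out, while all promoters had a median of -0.15 and -0.47 under those scalings. Lhx3 turned to -0.019 with all counted reads and -0.34 with library size only, and ranged from -0.044 (without ex14D replicate 1) to 0.26 with 1 library left out. Isl1 turned to -0.24 with library size only, and ranged from -0.056 (without control replicate 1) to 0.48. For EZH2, the 1056 genes lower numbered 0 to 1561 with 1 library left out (0 without either control library by edgeR, where 1300 to 1372 were lower at an unadjusted p under 0.05), and the 7 genes higher numbered 2 with DESeq2 size factors, 0 with the DESeq2 test (7 at an unadjusted p under 0.05), 33 with all counted reads, 47 with library size only and 0 to 81 with 1 library left out. The 7 members lower were 4 with the DESeq2 test and 0 to 9 with 1 library left out, and their median ranged from -0.90 to -0.41 without 1 library.

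Libraries of the same number did not deviate together (correlation -0.10 for H3K27me3 and -0.03 for EZH2 across genes), so they share only a number. With the replicate block, 7 members were higher for H3K27me3, beside 755 of the 14883 promoters tested, Lmx1a being lost (0.61, edgeR adjusted p = 0.120). For EZH2, 7 members were lower, beside 852 of the 13401 genes tested, and 3 genes in all were higher. A crossed pairing for H3K27me3, added after the data were seen, gave 795 promoters lower.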
